A study of Saccharomyces cerevisiae with 16 samples.

Results

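The 50 nuclear genes described here make arginine, histidine, isoleucine and valine, leucine, lysine, tryptophan, threonine, serine and asparagine in Saccharomyces cerevisiae, or regulate that synthesis. They were taken by symbol, as every gene of the 6002 nuclear protein-coding genes whose name is ARG, HIS, ILV, LEU, LYS, TRP, THR, SER or ASN followed by a number. This gave 10 ARG, 7 HIS, 5 ILV, 6 LEU, 9 LYS, 5 TRP, 2 THR, 4 SER and 2 ASN genes. Not all of them are biosynthetic enzymes: ARG80, ARG81, LEU3 and LYS14 encode transcription regulators, ARG82 encodes an inositol phosphate kinase, and LEU5 encodes a carrier of the inner mitochondrial membrane that coenzyme A in the matrix depends on.

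H3K18ac, acetylation of lysine 18 of histone H3, was measured by chromatin immunoprecipitation and sequencing in yeast that cycled in step in continuous culture, at 16 time points between 48.32 and 51.95 h. All libraries came from a prototrophic CEN.PK MATa strain with a FLAG tag on SPT7, a subunit of the SAGA acetyltransferase complex, so no library came from cells without the tag. Each time point had 1 library and no repeat. From the oxygen curve the study assigned time points 3 to 5 to the oxidative phase (OX), 6 to 11 to the building phase (RB) and 1, 2 and 12 to 16 to the charging phase (RC), so the phases are windows of neighbouring samples, and p-values over them measure the spread between such samples.

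H3K18ac is placed by the Gcn5 acetyltransferase of SAGA and lies on nucleosomes at the start of transcribed genes. In the metabolic cycle of yeast, cells switch together between respiration with fast growth, cell division, and a phase of stored carbohydrate and stress functions, and genes for ribosomes and for amino acid synthesis are known to be expressed around the respiratory phase. Many amino acid biosynthesis genes are targets of Gcn4, an activator whose translation rises when amino acids run short, and single pathways have regulators of their own, such as Leu3 with isopropylmalate and Lys14 with aminoadipate semialdehyde.

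The value of a gene is its mean coverage over 600 bp centred on the start codon, 300 bp on either side, divided by the mean nuclear coverage of the library, and is called relative coverage below. Libraries held at least 6521927 to 9359719 reads, and mean nuclear coverage was between 27.5 and 39.4 reads per base. No base exceeded 102 reads, and this ceiling narrows the range of genes with high coverage. The mark was not divided by H3, so acetylation per nucleosome and nucleosome number cannot be told apart, nor can a larger share of cells with the mark and more of it per cell. H3K18ac at the members had a median relative coverage of 1.90, against 1.68 over the 5733 genes with enough coverage to be tested, and all 50 members were tested. Levels ran between 0.966 at HIS6 and 2.66 at ASN1, with ASN1, LEU2, ILV3, ARG1, ILV6 and HIS4 above 95% of all genes.

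Around the start codon, mean H3K18ac of the members rose to a crest within the first 60 bp of the coding region in all 3 windows. The crest reached 2.72 times the nuclear mean in OX, 2.22 in RB and 2.24 in RC, while the mean over all nuclear protein-coding genes reached 1.93 in OX, 1.71 in RB and 1.87 in RC. The trough in front of it, 240 to 220 bp upstream of the start codon, had 1.69 in OX, 1.47 in RB and 1.64 in RC. At 600 bp into the coding region the windows had come together, with 1.04 in OX, 1.10 in RB and 0.94 in RC. In between, at 120 bp, OX stood at 2.54, RB at 2.06 and RC at 1.97.

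**Figure D1:**
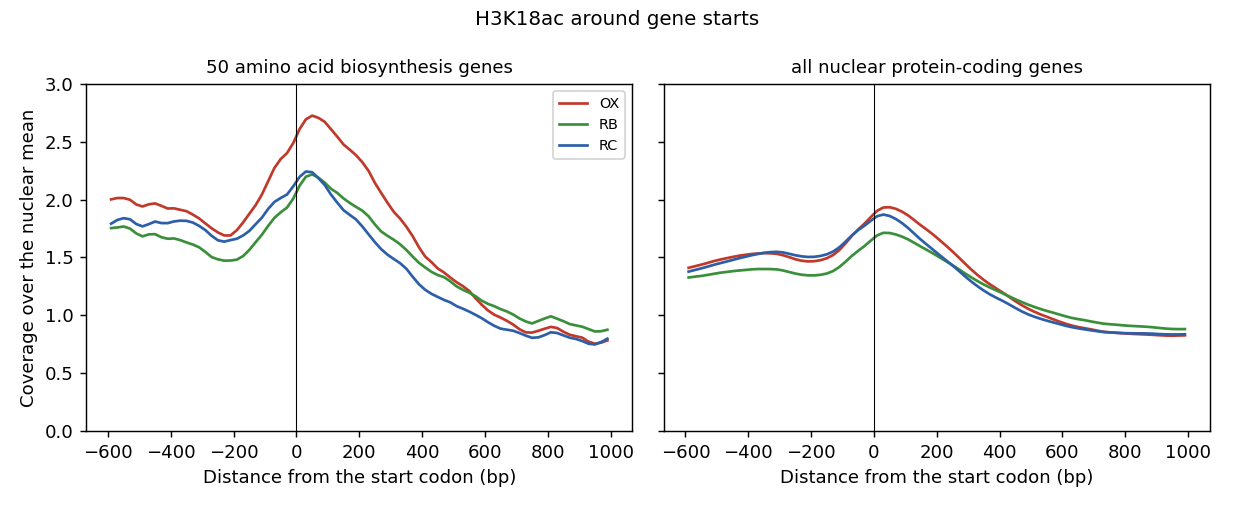
Mean coverage over the nuclear mean (y axis) against distance from the start codon in bp (x axis), for the 50 members (left) and all nuclear protein-coding genes (right), 1 line for each window. In the members the OX line stands above both others over the whole upstream side and the first 500 bp of the coding region, with a crest of 2.72.

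Over the time course, a curve of degree 3 in the time-point number was called (limma, adjusted p under 0.05) in 40 of 50 members (80%), against a background of 72.8% of all genes tested, so the share was close to that of genes in general. The 10 members that were not called were ARG2, ARG4, ARG80, ARG82, ASN1, HIS4, HIS6, LEU2, LEU5 and TRP1. With the hour of sampling in place of the time-point number, 27 members were called, and the share of all genes called fell as well. Changes were modest in size: the median range of log2 relative coverage between a gene's highest and lowest time point was 0.66 in the members and 0.56 over all genes, and it exceeded 1 in 10 members (20%), against 19.9% of all genes. The members with the largest ranges were LEU9 (2.12), ILV1 (1.61), ILV5 (1.49) and LYS4 (1.27). HIS2 had the smallest, 0.31.

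Most members were highest at the same time. Time point 4, at 48.83 h in the middle of OX, held the highest value of 37 of 50 members (74%), against 33.2% of all genes. Centred on each gene's own mean, the median member stood at 0.20 on the log2 scale at time point 3, 0.32 at time point 4 and 0.08 at time point 5, where the median of all genes stood at 0.11, 0.05 and -0.02. It lay between -0.02 and 0.01 from time points 6 to 9, and then at -0.12, -0.18 and -0.26 at time points 10, 11 and 12, where all genes stood at -0.12, -0.05 and -0.07. Time point 12 held the lowest value of 31 members (62%), against 22.4% of all genes.

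A smaller group of 10 members was highest at time point 14: ARG1, ARG4, ARG82, ASN1, HIS1, LEU2, LEU4, LYS20, LYS5 and TRP4 (20%, against 21.1% of all genes). Their mean coverage was high, with a median of 75.3 reads per base against 58.5 in the genes that were highest at time point 4, and time point 14 was the shallowest library. With each base corrected for the ceiling, a count added after seeing the data, 31 members were highest at time point 4 (25.8% of all genes), 3 at time point 14 (8.65%), and 30 were lowest at time point 12 (21.2%). The part of depth and ceiling in these 10 genes was not tested further.

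**Figure D2:**
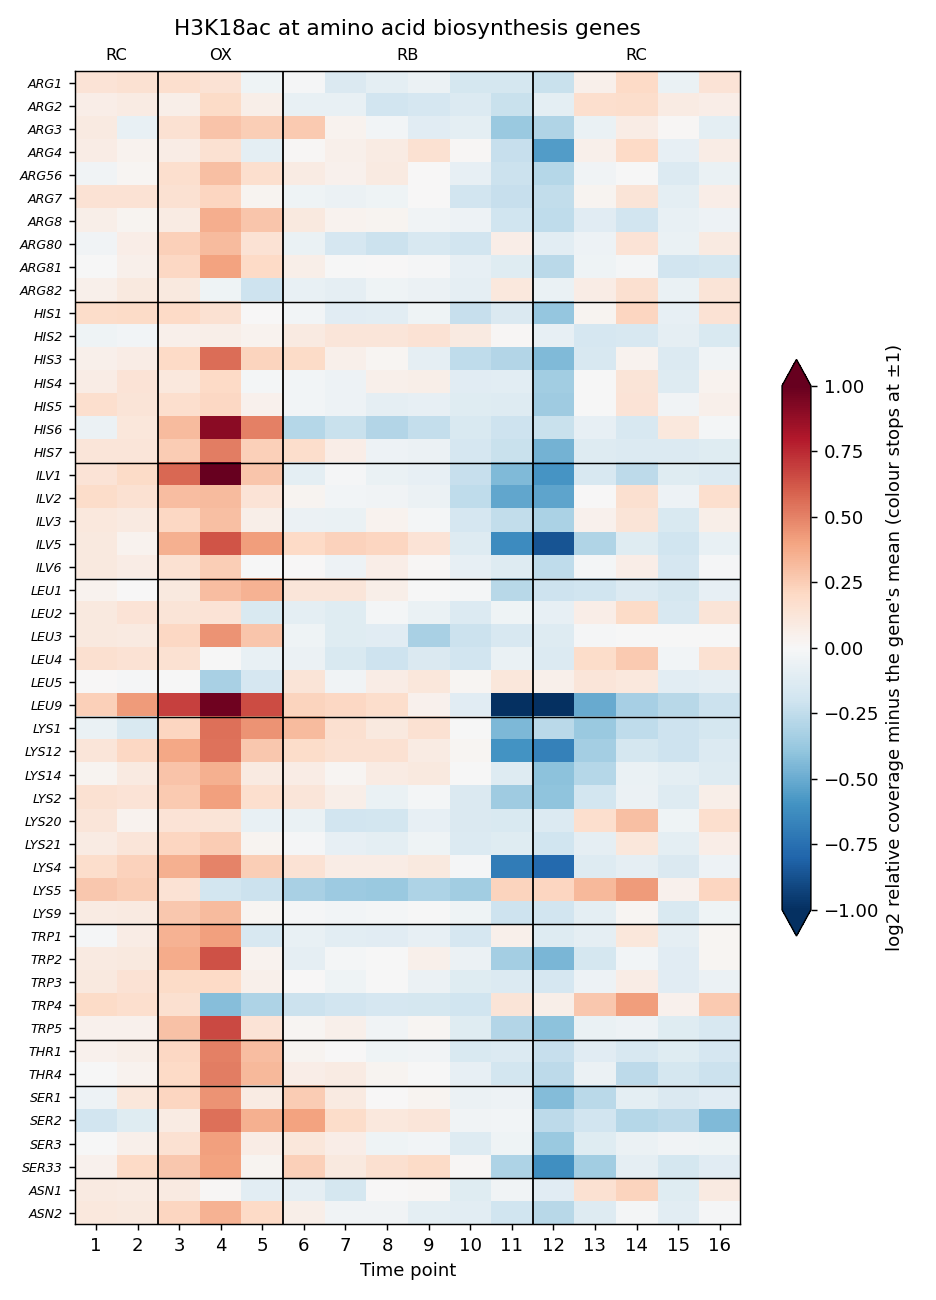
Log2 relative coverage minus the gene's mean over the 16 time points (colour, ending at -1 and 1) for each member (rows, by pathway prefix) at each time point (columns, with the windows OX, RB and RC marked). The red column at time point 4 covers 37 members at their highest, and LYS5 and TRP4 are below their mean there.

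The first question was whether H3K18ac at these genes was higher in OX than in the rest of the cycle. In OX against the mean of RB and RC, 32 of 50 members (64%) were higher (limma, adjusted p under 0.05), against a background of 30.1% of all genes tested, and 1 member, LEU5, was lower, against 16%. The difference was above 0 in 46 members, and in 3354 of the 5733 genes tested. Its median was 0.28 on the log2 scale, against 0.05 over all genes. In 17 members (34%) all 3 OX values lay above the other 13, against 16.3% of all genes.

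These calls lean on time point 4. Without it, 9 members were higher in OX and none was lower, with 13.5% of all genes higher, and the median difference of the members was 0.21. The same 9 genes, ARG80, ARG81, ASN2, HIS6, ILV1, LEU3, LYS1, THR1 and THR4, were called under each of 27 alternatives, including that one. The share of all genes that were called under all 27 alternatives at once was not counted, so these 9 stand without a background. All 33 members called in OX kept the sign of their difference under the 27 alternatives. The 17 members that were not called had a higher median level than the 32 that were higher in OX, 2.34 against 1.80, and more bases near the ceiling, with a median of 9.28% against 1.67% of the bases of the region.

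**Figure D3:**
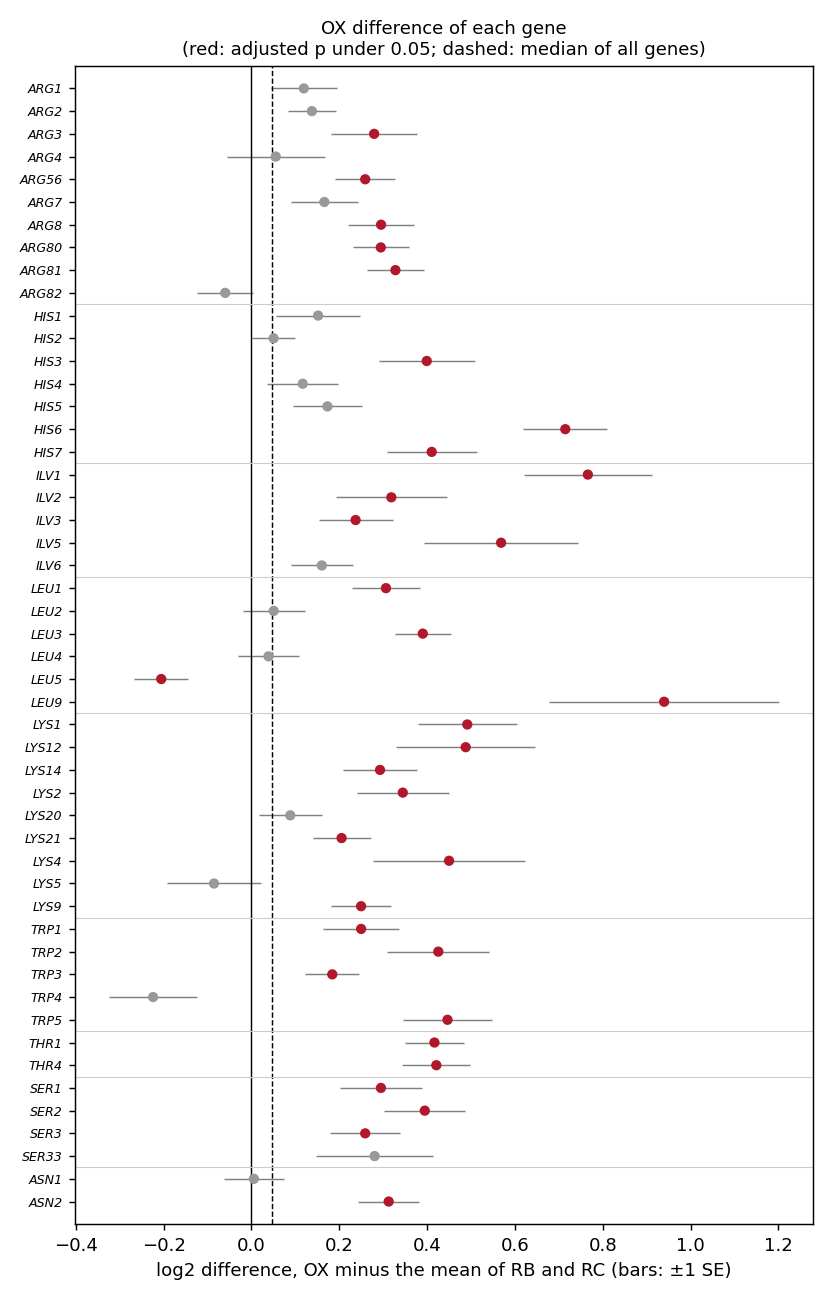
Log2 difference of OX from the mean of RB and RC (x axis) for each member, with bars of 1 standard error, red where the adjusted p was under 0.05. The differences run from -0.22 (TRP4) to 0.94 (LEU9), and the dashed line marks the median of all genes, 0.05.

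In RB against the mean of OX and RC, 2 members were higher (HIS2 and LEU5), against 5.11% of all genes, and 14 were lower, against 32.1%, so RB showed no excess in the members. The split moved with the scaling: 2 higher and 4 lower with median-of-ratios scaling (14.5% and 14.4% of all genes), 3 and 6 with quantile normalization (18.6% and 15.6% of all genes). These scalings moved the median RB difference of all genes from -0.10 to 0.00 and 0.01, and relative to that median the members stood at -0.05 with the nuclear mean, -0.05 with median-of-ratios scaling and -0.03 with quantile normalization. The count of lower members was 7 without time point 4 (26.0% of all genes) and 23 without time point 5 (39.4%). It was 8 without time point 10 (23.3%) and 25 without time point 12 (38.2%), so genes in general moved the same way. The 2 higher members were no longer called without time point 8 or without time point 9 (4.19% and 4.24% of all genes higher). Without time points 4, 6, 7, 10 or 11, 1 of them was left (3.96% to 5.48% of all genes).

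In RC against the mean of OX and RB, 3 members were higher (LEU4, LYS5 and TRP4), against 31.2% of all genes, and 22 were lower (44%), against 20.4%. The median RC difference was -0.14 in the members and 0.04 over all genes. Of the 32 members that were higher in OX, 20 were also lower in RC and 8 were lower in RB, comparisons that share their libraries. A gene's differences in OX, RB and RC cancel out by construction, so one that is higher in OX must fall below in RB or RC. How often this held among all genes was not counted. Without time point 4 the count of members lower in RC was 12 (14.9% of all genes). Without time point 12 there were 5 members higher in RC (35.1% of all genes).

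By pathway, the median OX difference was 0.42 in the THR genes, 0.32 in ILV, 0.29 in LYS, 0.29 in SER, 0.25 in TRP, 0.21 in ARG, 0.18 in LEU, 0.17 in HIS and 0.16 in ASN. It stayed above 0 for each prefix with median-of-ratios scaling and quantile normalization. The number of genes higher in OX was 2 of 2 THR, 4 of 5 ILV, 4 of 5 TRP, 7 of 9 LYS, 3 of 4 SER, 5 of 10 ARG, 3 of 6 LEU, 3 of 7 HIS and 1 of 2 ASN genes. With so few genes in a prefix, these orders are a description, and differences between prefixes were not tested.

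**Figure D4:**
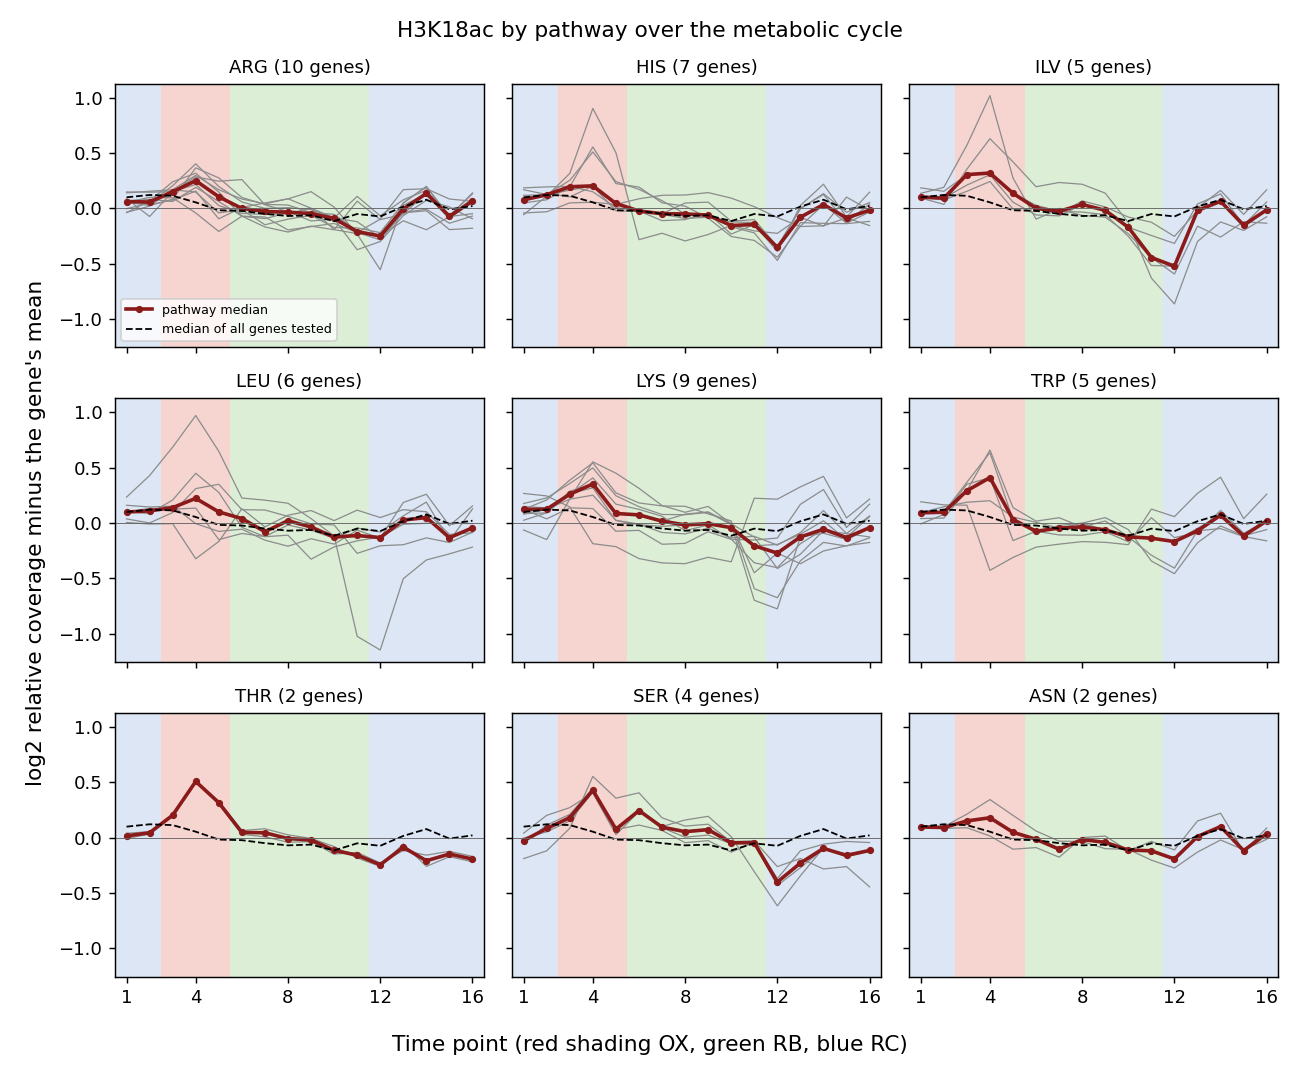
Log2 relative coverage minus the gene's mean (y axis) at the 16 time points (x axis, windows shaded), 1 panel for each prefix, with members in grey, their median in dark red and the median of all genes dashed. The ILV median falls to -0.52 at time point 12, and the THR and SER medians reach 0.51 and 0.43 at time point 4.

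The ILV genes, whose enzymes make isoleucine and valine in the mitochondria, had the deepest trough. Their median was 0.31, 0.32 and 0.14 at time points 3, 4 and 5 on the centred log2 scale, and -0.44 and -0.52 at time points 11 and 12, before it returned to -0.02 at time point 13. ILV1 encodes threonine deaminase, the entry into isoleucine synthesis, and lies on chromosome V from 328477 to 330207 (R64). Its relative coverage was 1.79, 2.47 and 1.44 in OX, against 0.833 to 1.16 around a median of 1.09 in RB and 0.741 to 1.35 around a median of 1.06 in RC. Every OX value of ILV1 lay above all others, and the log2 difference in OX was 0.77 (SE 0.15, limma adjusted p = 0.000687). The regulatory subunit gene ILV6 had the smallest range of the group, 0.50. It stood at 2.72, 2.90 and 2.42 in OX, against 2.22 to 2.55 in RB and 2.02 to 2.61 in RC, windows that overlapped (log2 difference in OX 0.16, SE 0.07, adjusted p = 0.0724).

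Of the other ILV genes, ILV2 (acetolactate synthase), ILV3 (dihydroxyacid dehydratase) and ILV5 (acetohydroxyacid reductoisomerase) were higher in OX, by 0.32, 0.24 and 0.57 on the log2 scale. The call of ILV2 held under only 12 of 27 alternatives, that of ILV3 under 24 and that of ILV5 under 26. ILV5, described after its values were seen, had 2.02, 2.47 and 2.12 in OX, against 0.971 to 1.85 in RB and 0.811 to 1.67 in RC. Without time point 4 its OX difference was 0.49 and was not called (adjusted p = 0.114). ILV1 kept its call there, with a difference of 0.57 and an adjusted p of 0.0167.

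The leucine branch starts from an intermediate of valine synthesis, and its LEU genes were the most unlike one another, with OX differences between -0.21 and 0.94. LEU9 (chromosome XV, 523027 to 524841) encodes the minor alpha-isopropylmalate synthase and had the widest range of all members. Its relative coverage was 2.27, 2.79 and 2.21 in OX, against 0.625 to 1.63 around a median of 1.49 in RB and 0.565 to 1.89 around a median of 1.12 in RC, which makes the highest value 4.94 times the lowest. The OX values of LEU9 did not overlap with any other, and the log2 difference in OX was 0.94 (SE 0.26, adjusted p = 0.00853). Without time point 4 it was 0.84 and no longer called (adjusted p = 0.0726).

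LEU3 encodes the regulator of the branch and had 1.77, 2.11 and 1.86 in OX, against 1.19 to 1.48 in RB and 1.38 to 1.64 in RC. Here too the OX values stood clear of the rest, with a log2 difference of 0.39 (SE 0.06, adjusted p = 0.000228) and one of -0.32 in RB (adjusted p = 0.000605). LEU1, isopropylmalate isomerase, was higher in OX by 0.31 and was the 1 member with its highest value at time point 5. LEU2, isopropylmalate dehydrogenase, had the second highest level of all members with 39.4% of its bases near the ceiling, and its values of 2.88, 2.90 and 2.36 in OX overlapped with 2.38 to 2.60 in RB and 2.34 to 3.01 in RC (log2 difference in OX 0.05, SE 0.07, adjusted p = 0.579).

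LEU5, the mitochondrial carrier gene named above and described after its values were seen, went the other way. It had 1.92, 1.52 and 1.71 in OX, against 1.88 to 2.12 in RB and 1.79 to 2.11 in RC. Its lowest value fell at time point 4, where 37 members were highest, and it was lower in OX (log2 difference -0.21, SE 0.06, adjusted p = 0.0134) and higher in RB by 0.15 (adjusted p = 0.0348). Without time point 4 the OX difference was -0.13 and was not called (adjusted p = 0.183).

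All 9 LYS genes were called over the time course, as were all ILV, THR and SER genes, against 72.8% of all genes tested. In OX, 7 of the LYS genes were higher, against 30.1% of all genes. Lysine synthesis in yeast runs through aminoadipate, from homocitrate synthase (LYS20, LYS21) through homoaconitase (LYS4) and homoisocitrate dehydrogenase (LYS12) to aminoadipate reductase (LYS2) and the enzymes of the last steps (LYS9, LYS1). LYS4 had the largest range of the group, with 2.49, 2.76 and 2.30 in OX, against 1.15 to 2.14 around a median of 2.03 in RB and 1.08 to 2.27 around a median of 1.80 in RC. Its OX values lay above the rest, with a log2 difference of 0.45 (SE 0.17, adjusted p = 0.0413), and its lowest values were 1.15 and 1.08 at time points 11 and 12. LYS12 had a like trough of 1.20 and 1.12 at the same time points. The OX call of LYS4 held under only 15 of 27 alternatives. Among those where it was lost were the fits without time point 4 (0.38, adjusted p = 0.196) and without time point 14 (0.45, adjusted p = 0.0507).

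LYS1, for saccharopine dehydrogenase of the last step, was higher in OX by 0.49 (SE 0.11, adjusted p = 0.00245) and lower in RC (log2 difference -0.44, adjusted p = 0.00138). The regulator gene LYS14 had 2.38, 2.50 and 2.06 in OX, against 1.76 to 2.08 in RB and 1.43 to 2.07 in RC. Only the value at time point 5 of LYS14 fell within the range of the others, and the log2 difference in OX was 0.29 (SE 0.08, adjusted p = 0.0107), or 0.24 and not called without time point 4 (adjusted p = 0.106).

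LYS5, described after its values were seen, was the 1 LYS gene called higher in RC and the 1 with an OX difference below 0. It encodes the phosphopantetheinyl transferase that activates Lys2. Its relative coverage was 2.59, 2.04 and 2.00 in OX, against 1.78 to 2.74 around a median of 1.83 in RB and 2.41 to 3.16 around a median of 2.78 in RC. Within RB, 5 time points held 1.78 to 1.86 and time point 11 held 2.74, where LYS4 stood at 1.15. LYS5 was higher in RC by 0.41 (SE 0.09, adjusted p = 0.00140) and its OX difference was -0.09 (adjusted p = 0.531). In RB it was lower (log2 difference -0.33, adjusted p = 0.00915), as were LYS20 and LYS21 (-0.21 and -0.16). The RB difference was below 0 in all 9 LYS genes, as it was in most genes. It was above 0 in only 5 of 50 members and in 1368 of the 5733 genes tested. The start of LYS5 is 176 bp from that of PEX14, a peroxisome import gene on the other strand, which had an OX difference of -0.12 (adjusted p = 0.367), and with this distance the regions of both genes overlap.

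THR1 (homoserine kinase) and THR4 (threonine synthase), the enzymes between homoserine and threonine, were both higher in OX. THR4 had 1.64, 2.06 and 1.80 in OX, against 1.23 to 1.50 in RB and 1.17 to 1.45 in RC. In THR1 the OX values were 2.27, 2.82 and 2.44, against 1.75 to 2.00 in RB and 1.65 to 2.03 in RC. Both genes had every OX value above the other 13, with log2 differences of 0.42 (SE 0.08, adjusted p = 0.000538) in THR4 and 0.42 (SE 0.07, adjusted p = 0.000195) in THR1, and both were lower in RC, with differences of -0.30 and -0.24.

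The SER genes, whose enzymes lead from 3-phosphoglycerate to serine, were the 1 group of 4 or more in which each gene was lower in RC (4 of 4). Their median was 0.43 at time point 4 and, unlike that of the other prefixes, still 0.25 at time point 6, then -0.40 at time point 12. SER2, the phosphoserine phosphatase gene on chromosome VII from 911883 to 912812, had 1.89, 2.66 and 2.31 in OX, against 1.73 to 2.39 around a median of 1.93 in RB and 1.28 to 1.63 around a median of 1.47 in RC. Its RC values lay below every value of OX and RB, with a log2 difference in RC of -0.48 (SE 0.07, adjusted p = 0.000511). SER1, the aminotransferase gene, was lower in RC (log2 difference -0.29, adjusted p = 0.00538).

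In the tryptophan pathway, 4 of 5 genes were higher in OX and 1 was not. TRP2 encodes anthranilate synthase, the first step, and had the largest range of the group. It had 2.02, 2.45 and 1.57 in OX, against 1.19 to 1.59 in RB and 1.09 to 1.65 in RC. Time point 5 of TRP2 was back within the range of the others, and the log2 difference in OX was 0.43 (SE 0.12, adjusted p = 0.00769), which without time point 4 was 0.28 and not called (adjusted p = 0.124). TRP3, which encodes the partner subunit of that enzyme joined to a later activity, had the smallest range, with 2.65, 2.68 and 2.40 in OX, against 2.09 to 2.32 in RB and 2.05 to 2.57 in RC (log2 difference 0.18, SE 0.06, adjusted p = 0.0223). TRP1 and TRP5, for a middle step and for tryptophan synthase, were higher in OX by 0.25 and 0.45.

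TRP4, the anthranilate phosphoribosyltransferase gene, was described after its values were seen. It had 2.60, 1.69 and 1.84 in OX, against 1.97 to 2.53 around a median of 2.02 in RB and 2.38 to 3.11 around a median of 2.65 in RC. Its lowest value thus fell at time point 4, where TRP2 and TRP5 were highest. TRP4 was higher in RC by 0.36 (SE 0.08, adjusted p = 0.00217), and its OX difference of -0.22 was not called (SE 0.10, adjusted p = 0.0781). Without time point 4 the RC difference was 0.31 and still called (adjusted p = 0.00871).

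Among the HIS genes, HIS6 stood out by its contrast and HIS2 by its flatness. HIS6, the phosphoribosyl isomerase gene on chromosome IX from 314035 to 314820, had the lowest level of all members. It had 1.19, 1.84 and 1.37 in OX, against 0.746 to 0.832 in RB and 0.787 to 1.02 in RC. Every OX value of HIS6 lay above the rest, with a log2 difference of 0.71 (SE 0.10, adjusted p = 7.42e-05) and one of -0.50 in RB (adjusted p = 0.000545). Its start is 272 bp from that of FAF1, a ribosome biogenesis gene on the other strand, which was higher in OX by 0.93 (adjusted p = 6.09e-05).

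HIS2, histidinol phosphatase, had 1.26, 1.27 and 1.25 in OX, against 1.23 to 1.35 around a median of 1.32 in RB and 1.07 to 1.19 around a median of 1.14 in RC. OX and RB values overlapped and both lay above RC. HIS2 was higher in RB by 0.12 (SE 0.04, adjusted p = 0.0271) and lower in RC (log2 difference -0.17, SE 0.04, adjusted p = 0.00250). HIS3 (imidazoleglycerol-phosphate dehydratase) and HIS7 (imidazole glycerol phosphate synthase) were higher in OX by 0.40 and 0.41, while HIS1, HIS4 and HIS5 had differences of 0.15, 0.12 and 0.17 that were not called (adjusted p = 0.202, 0.247 and 0.0800). HIS1 and HIS4, for the first step and for 3 later activities on 1 protein, had 19.1% and 19.4% of their bases near the ceiling.

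In the arginine pathway, 5 of 10 genes were higher in OX: the mitochondrial enzymes of the ornithine branch ARG56 (ARG5,6, acetylglutamate kinase and reductase) and ARG8 (acetylornithine aminotransferase), the ornithine carbamoyltransferase gene ARG3, and the regulators ARG80 and ARG81. ARG81 had 2.14, 2.47 and 2.13 in OX, against 1.69 to 1.92 in RB and 1.52 to 1.91 in RC. For ARG80 the OX values were 2.01, 2.12 and 1.88, against 1.44 to 1.77 in RB and 1.56 to 1.87 in RC. Both regulators had all OX values above the others, with log2 differences of 0.33 (SE 0.07, adjusted p = 0.000924) in ARG81 and 0.29 (SE 0.06, adjusted p = 0.00173) in ARG80. The regions of ARG81 and TAF13, a TFIID subunit gene on the other strand, overlap at a distance of 226 bp, and TAF13 was higher in OX by 0.29 (adjusted p = 0.00168).

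ARG82 had 2.02, 1.83 and 1.62 in OX, against 1.76 to 2.04 in RB and 1.79 to 2.12 in RC, windows that overlapped (log2 difference in OX -0.06, SE 0.06, adjusted p = 0.459). ARG4, argininosuccinate lyase, had the largest range of the ARG genes, 0.75, through low values of 1.74 at time point 11 and 1.38 at time point 12. Its values overlapped between windows, with 2.19, 2.32 and 1.93 in OX, against 1.74 to 2.31 in RB and 1.38 to 2.38 in RC (log2 difference in OX 0.06, SE 0.11, adjusted p = 0.708). ARG1, ARG2 and ARG7, for the synthesis of argininosuccinate, of acetylglutamate and of ornithine, had OX differences of 0.12, 0.14 and 0.17 that were not called (adjusted p = 0.199, 0.0507 and 0.0816).

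Within the 50 genes, 4 pairs of isozymes catalyse the same reaction, and their H3K18ac was compared directly. The log2 ratio of LEU9 to LEU4, the minor and the major alpha-isopropylmalate synthase, was 0.01 ± 0.22 in OX (SD, n = 3) and -0.91 ± 0.51 at the other time points (SD, n = 13), so that they differed by 0.92 (two-sided exact permutation of the time points, 560 arrangements, p = 0.0107, adjusted over 4 pairs 0.0214). LEU4 itself had 2.64, 2.35 and 2.24 in OX, against 2.03 to 2.27 in RB and 2.14 to 2.85 in RC, with a log2 difference of 0.16 in RC (SE 0.06, adjusted p = 0.0244). LEU9 came up to the level of LEU4 at time points 4 and 5, and at time point 12 it had 0.565 against 2.14. LEU4 was not called in RC without time point 4 (adjusted p = 0.0553) or 14 (adjusted p = 0.0576).

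The asparagine synthetase genes differed in the same sense. The log2 ratio of ASN2 to ASN1 was -0.02 ± 0.11 in OX (SD, n = 3) and -0.33 ± 0.13 elsewhere (SD, n = 13), a difference of 0.31 (exact permutation p = 0.00536, adjusted 0.0214). ASN2 had 2.55, 2.80 and 2.53 in OX, against 1.88 to 2.28 in RB and 1.79 to 2.35 in RC, and was higher in OX by 0.31 (SE 0.07, adjusted p = 0.00216). ASN1 had 2.83, 2.68 and 2.46 in OX, against 2.34 to 2.68 in RB and 2.43 to 3.11 in RC, windows that overlapped. ASN1 had 37.6% of its bases near the ceiling and ASN2 3.27%, and the part of the ceiling in this difference was not tested.

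For the homocitrate synthase genes, the log2 ratio of LYS20 to LYS21 was -0.06 ± 0.02 in OX (SD, n = 3) and 0.07 ± 0.11 elsewhere (SD, n = 13), a difference of -0.12 (exact permutation p = 0.0643, adjusted 0.0857). LYS20 had 2.09, 2.08 and 1.79 in OX, against 1.65 to 1.80 in RB and 1.71 to 2.36 in RC, while LYS21 had 2.15, 2.20 and 1.87 in OX, against 1.66 to 1.82 in RB and 1.58 to 2.01 in RC. LYS21 was higher in OX by 0.21 (SE 0.07, limma adjusted p = 0.0186) and LYS20 had a difference of 0.09 that was not called (SE 0.07, adjusted p = 0.329), but the test of the pair did not pass the threshold.

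The phosphoglycerate dehydrogenase genes SER33 and SER3 had a log2 ratio of 0.08 ± 0.09 in OX (SD, n = 3) and 0.06 ± 0.17 elsewhere (SD, n = 13), a difference of 0.03 (exact permutation p = 0.813). SER33 had 2.27, 2.50 and 1.90 in OX, against 1.49 to 2.21 in RB and 1.18 to 2.16 in RC. SER3 had 1.99, 2.40 and 1.88 in OX, against 1.62 to 1.93 in RB and 1.35 to 1.85 in RC. Their OX differences were 0.28 (SE 0.13, limma adjusted p = 0.0925) and 0.26 (SE 0.08, adjusted p = 0.0142). The smallest p that 560 arrangements allow is 0.00179, the pairs were compared with earlier results known, and neighbouring time points are not exchangeable, so these p-values can be too small. Reads that mapped to several places were discarded upstream, and the part of this in the pairs was not tested. In LYS20 a mean of 0.01% of the bases of the region had no coverage. In LEU4, LEU9, ASN1, ASN2, LYS21, SER3 and SER33 no base was without coverage.

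**Figure D5:**
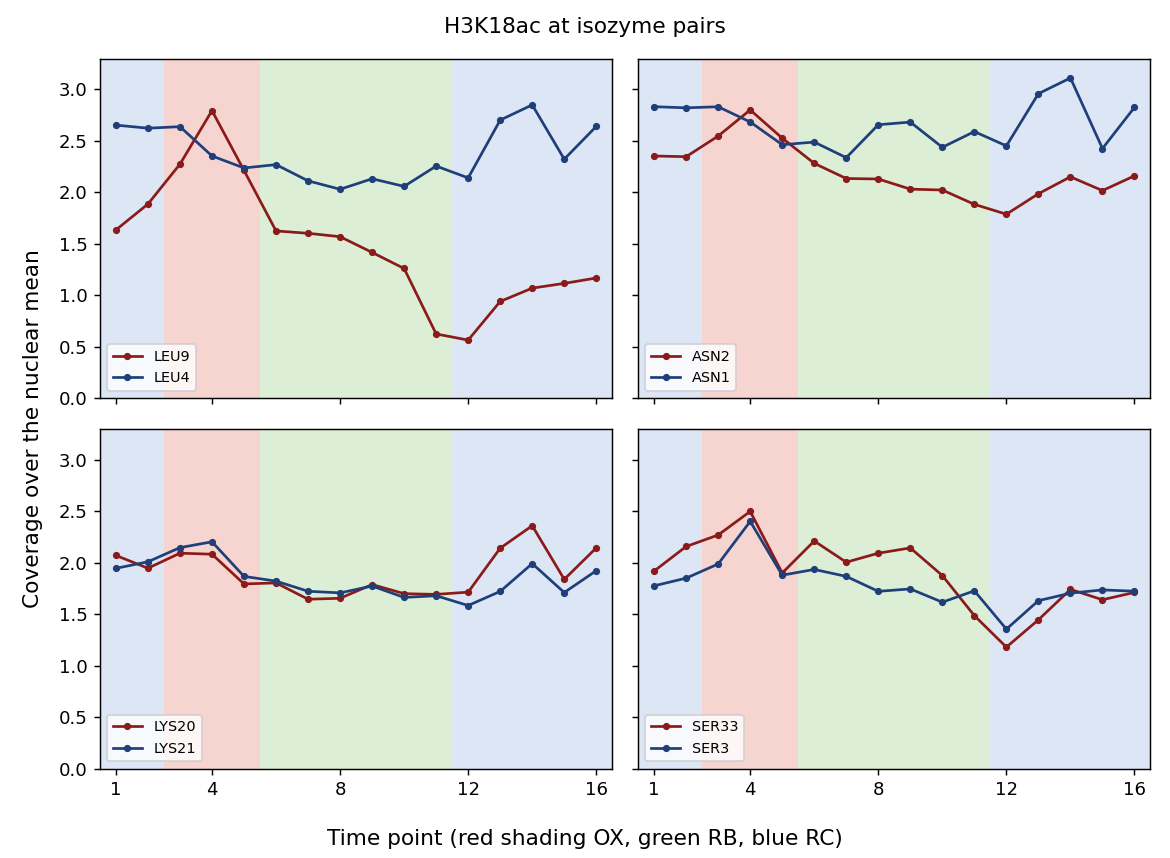
Relative coverage (y axis) of both genes of each isozyme pair at the 16 time points (x axis, shading marks OX in red, RB in green, RC in blue). LEU9 meets LEU4 in OX and stands at 0.565 against 2.14 at time point 12, while SER33 and SER3 run together.

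The OX difference was larger on the coding side than on the promoter side of the region in 45 of 50 members, and genes in general leaned the same way (median 0.33 downstream and 0.21 upstream in the members, against 0.06 and 0.02 over all genes). The share of all genes with a larger difference on the coding side was not counted. Taken alone, the 300 bp downstream of the start codon gave 34 members higher in OX, against 31.4% of all genes, and the 300 bp upstream gave 22, against 24.6%. Of these, 21 members were higher in both, 13 only downstream and 1 only upstream (TRP1). In RC, 27 members were lower downstream, against 25.3% of all genes. Upstream, 8 were lower, against 14.8%, a share near that of genes in general, and 8 were higher, against 37.4% (the median RC difference was -0.23 downstream and -0.03 upstream, against 0.00 and 0.08 over all genes). In RB, 7 members were lower downstream, against 23.4% of all genes, and 24 upstream, against 34.1%, so in genes in general too more were lower upstream. LYS9, the saccharopine reductase gene, was the plainest case, with an OX difference of 0.43 downstream (adjusted p = 0.000939) and 0.07 upstream (adjusted p = 0.458), although the difference between both sides was not tested.

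Some of the upstream sides belong to other genes as well. The start of an oppositely oriented gene lay within 300 bp of that of 7 members (ARG2, ARG81, HIS3, HIS6, LYS5, SER2 and THR1), and an upstream gene in the same orientation ended within 300 bp of 7 others. Such a start lay 336 bp from that of ILV1, 477 bp from ARG82 and 594 bp from TRP1, where the regions of both genes still overlap. Among the divergent partners, MRM1 beside HIS3 was higher in OX by 0.40, CIR1 beside SER2 by 0.35 and MAS2 beside THR1 by 0.30, while PSF2 beside ARG2 had a difference of 0.10 that was not called (adjusted p = 0.171). YER085C beside ILV1 was higher in OX by 0.63 and SOK1 beside TRP1 by 0.37. HMO1 beside ARG82 had a difference of 0.02 that was not called (adjusted p = 0.825). Values of such pairs share bases and are not independent.

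Genes of these and related pathways with other names came from a list of 25. Of these, 11 were higher in OX, against 30.1% of all genes, and 3 were lower, against 16%, with a median difference of 0.18. CPA1, the small subunit of the carbamoyl phosphate synthetase that serves arginine, was higher in OX by 0.68 (adjusted p = 0.000144), and ARO7, chorismate mutase, by 0.61 (adjusted p = 0.000492). Lower in OX were ARO9, an aromatic aminotransferase of amino acid breakdown (log2 difference -0.84, adjusted p = 0.0243), BAT2, the cytosolic branched-chain aminotransferase (-0.35, adjusted p = 0.0197), and PRO3, which makes proline (-0.14, adjusted p = 0.0315). In RC, 4 genes of the list were higher, against 31.2% of all genes, and 9 were lower, against 20.4%. ARO9 and BAT2 were higher in RC by 1.35 and 0.48 (adjusted p = 0.000597 and 0.000945). The others higher in RC were TYR1 and PHA2, each by 0.12 (adjusted p = 0.0143 and 0.0400). GCN4 itself had 0.610 to 0.874 in OX, against 0.534 to 0.824 in RB and 0.502 to 0.715 in RC, and its OX difference of 0.17 was not called (SE 0.11, adjusted p = 0.222).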

How the data were processed

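The authors immunoprecipitated chromatin of cycling cells with an antibody to H3K18ac (Millipore) and deposited coverage, a signal of whole reads per base that was not scaled for depth. Per the study's methods reads were mapped with Bowtie, multimapped and duplicate reads were removed and coverage was written with bedtools genomecov. Tools named in the submitters' processing notes are STAR, Trimmomatic 0.32, SAMtools and bedtools. H3 libraries, other histone marks and RNA-seq were not used here. The largest value, 102 reads in each library, is what 1 read per position and strand with 51 bp reads allows.

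Region means were computed over 12157105 positions with Python 3.11.15, numpy 2.4.6 and pandas 2.3.3, with start codons from the RefSeq table (R64), whose coding regions stand in for transcripts. Values were log2(relative coverage + 0.1), a gene was tested if its mean coverage reached 5, and fold changes on this scale understate low genes. Limma 3.58.1 in R 4.3.3 fitted all 16 libraries, with a curve of degree 3 in the time-point number as in the study's own analysis of expression, or with the 3 windows, and p-values were adjusted over 5733 genes by Benjamini-Hochberg with a threshold of 0.05. The fits were tested on simulated data.

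Members and lists were chosen with earlier results of these data known. Values per window were given for the genes of largest range in each prefix, those of smallest range in prefixes of at least 4 genes, the regulators and the isozyme pairs. Other genes described were chosen after their values were seen, as were the isozyme tests. Alternatives were pseudocounts of 0.01 and 1, coverage minimums of 0 and 20, median-of-ratios and quantile scaling, each side of the start alone, a ceiling correction, depth as a covariate, time points 13 and 14 averaged, each time point left out in turn, and other time models. Sequences were not at hand, so the planned motif search was not run.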

Additional observations from a re-analysis of the deposited data

Results flagged for a closer look

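Within RB (6 time points) and RC (7 time points), the highest and lowest value of each of 23 named members and of 10 median profiles was set against the others by Dixon's criterion at the 95% level. OX has 3 time points, too few for it. Of 66 groups searched 9 stood apart, and all 9 fell at time points 11 and 12, on both sides of the border between RB and RC. Some of the named members were chosen for their large range, and all groups share the same libraries. The rate of 1 in 20 that the criterion gives for independent groups therefore does not apply to this count. The windows join neighbouring time points, which are not repeats of 1 state.

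At time point 12, the ILV median profile stood at -0.52 on the centred log2 scale, with the other RC time points between -0.15 and 0.10. ARG4 had a relative coverage of 1.38 there (others 1.95 to 2.38), LYS4 had 1.08 (others 1.73 to 2.27) and SER3 had 1.35 (others 1.63 to 1.85). At time point 11 within RB, ARG4 had 1.74 (others 2.08 to 2.31), LEU9 had 0.625 (others 1.26 to 1.63), LYS4 had 1.15 (others 1.90 to 2.14) and TRP2 had 1.19 (others 1.44 to 1.59). Among the named members searched, ARG82 was the 1 gene apart on the high side, with 2.04 at time point 11 (others 1.76 to 1.83). LYS5, whose high value at time point 11 is given above, was not among them.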

How the results depend on the processing

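The count of members called over the time course was 33 to 47 under all alternatives but the hour of sampling, which gave 27 (43.4% of all genes), and 37 to 42 without 1 time point. Shares of all genes are not given beside the other counts, so these are not read as a result about the members. Members higher in OX numbered 22 to 35 under the alternatives that keep all time points (23.5% to 31.4% of all genes). Leaving out 1 time point gave 9 to 34 higher and 0 to 2 lower in OX, 0 to 2 higher and 7 to 25 lower in RB, and 2 to 5 higher and 12 to 27 lower in RC. Over all genes the matching shares ran from 13.5% to 31.8% higher and 4.26% to 22.2% lower in OX. In RB they were 3.96% to 7.40% and 23.3% to 39.4%, and in RC 26.9% to 35.7% and 14.9% to 23.0%. Members lower in OX were 3 with median-of-ratios scaling (27.4% of all genes) and 3 with quantile normalization (30.9%). They were 2 with the ceiling correction (25.9%) and 2 with depth as a covariate (18.5%). Members lower in RB were 4 with median-of-ratios scaling (14.4% of all genes) and 6 with quantile normalization (15.6%). On the upstream side they were 24 (34.1%) and on the downstream side 7 (23.4%). The upstream side gave 0 members higher in RB (4.19% of all genes), and 8 higher and 8 lower in RC (37.4% and 14.8%). There the RC differences of LYS14, ARG56 and ARG8 turned positive, at 0.034, 0.044 and 0.14, without being called. The cause of these changes was not tested.

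No paired analysis was possible because each time point has 1 library. Across single members and alternatives, 67 OX, 88 RB and 54 RC differences lost a call with their sign kept, and 25, 40 and 55 gained one. A further 3 RC differences, those of LYS14, ARG56 and ARG8 on the upstream side, lost their call and changed sign. Depth and the ceiling limit genes of high coverage most, since 102 reads per base is the most that can be recorded.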
